A study of Mus musculus with 6 samples.

Results

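The Eph-ephrin, Slit-Robo and netrin families were followed in RNA from mouse forebrain at embryonic day 15.5. Members were taken by gene symbol: the EphA and EphB receptors, their ephrin-A and ephrin-B ligands, the Slits and Robos, the netrins and netrin-Gs, Dcc, Neo1 and the UNC5 receptors. Of 41 symbols that fit the rule, 40 had a row among the 33084 genes of the count table, and Ntn3 was not analysed here. After a filter on low counts 39 remained among 19616 tested genes. Ntn5, a netrin near 0 counts in each library, did not pass. The libraries fell into 3 mutant forebrains of the genotype Dyrk1a<DlxCre/+> and 3 control forebrains labelled wt. In the mutants Dyrk1a, which encodes a serine/threonine and tyrosine kinase acting in neuronal development, was conditionally inactivated in the Dlx5 domain, that is, in the developing GABAergic territory of the ventral forebrain. The /+ of the genotype is read here as a heterozygous loss, with a wild-type allele kept inside that domain too. Cells outside that domain, which make up much of a whole forebrain, keep their Dyrk1a alleles, so a change limited to Dlx5-lineage cells is diluted in such RNA. Whether litters were shared is not stated in the labels, and p-values therefore measure only the spread between these libraries, 1 per embryo as far as is known.

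These families steer growing axons and migrating neurons. Ephrins are bound to the membrane, ephrin-As by a lipid anchor and ephrin-Bs by a transmembrane segment, so they signal on contact, and often repel cells carrying Eph receptors. Signals also run backwards into the ephrin-bearing cell. Slits are secreted proteins that repel axons and neurons carrying Robo receptors. Netrin-1 is secreted too: it attracts through DCC, and repels where UNC5 receptors take part, while neogenin, encoded by Neo1, binds netrins as well as repulsive guidance molecules. Netrin-Gs are membrane-anchored and bind certain NGL proteins at synapses in place of DCC. In the embryonic forebrain these systems position thalamocortical and callosal axons and guide interneurons out of the ventral telencephalon.

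Library totals ranged between 25360030 and 28339650 counts in mutants and between 24646616 and 38315004 counts in controls. Dyrk1a itself had 186, 159 and 182 CPM (reads scaled to library size with TMM factors) in the mutant libraries, against 169, 183 and 180 CPM in the control libraries. The groups overlapped, with a log2 fold change of mutant over control of -0.02 ± 0.09 (SE). The count covers the whole gene and the whole tissue, so it does not check the deletion. Markers of forebrain identity were present in all libraries, with a sum over 12 genes of 623 to 680 CPM in mutants and 592 to 718 CPM in controls. The 9 hindbrain and spinal cord markers in the table summed to 0.176 to 0.479 CPM in mutants and 0.243 to 0.45 CPM in controls, and 2 of them were at 0 throughout. In bulk RNA, fewer cells of a type and less RNA per cell cannot be told apart, which holds for each value that follows.

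All 10 families were expressed in the forebrain, at levels spread over more than an order of magnitude. Levels of different genes are given as CPM per kilobase of merged exon. On this scale 16 members stood at 10 or above, 21 between 1 and 10, and 3 below 1. The members' median was 8.08 CPM per kilobase, against 4.39 over all tested genes. The highest level belonged to Epha4, a receptor that binds ephrins of both classes, with 54.1 ± 5.76 in mutants and 54.6 ± 7.38 in controls (SD, n = 3 each). Neo1 was next at 44.2 ± 2.60 in mutants and 45.4 ± 2.23 in controls, a gap smaller than the spread within each group. The ephrin-B ligands Efnb3 and Efnb1 followed, with 40.7 and 39.05 in mutants and 38.9 and 34.9 in controls. Epha3, Efnb2, Robo2, Slit1, Ephb2 and Dcc completed the first 10, all with group means between 20.7 and 28.4. Between Efnb2 and Dcc, neighbours in this order differed by less than the larger of their SDs. At the bottom were Epha1, with 0.0887 in mutants and 0.0930 in controls, and Ntn5, with 0.0165 in mutants and 0.0183 in controls.

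**Figure D1:**
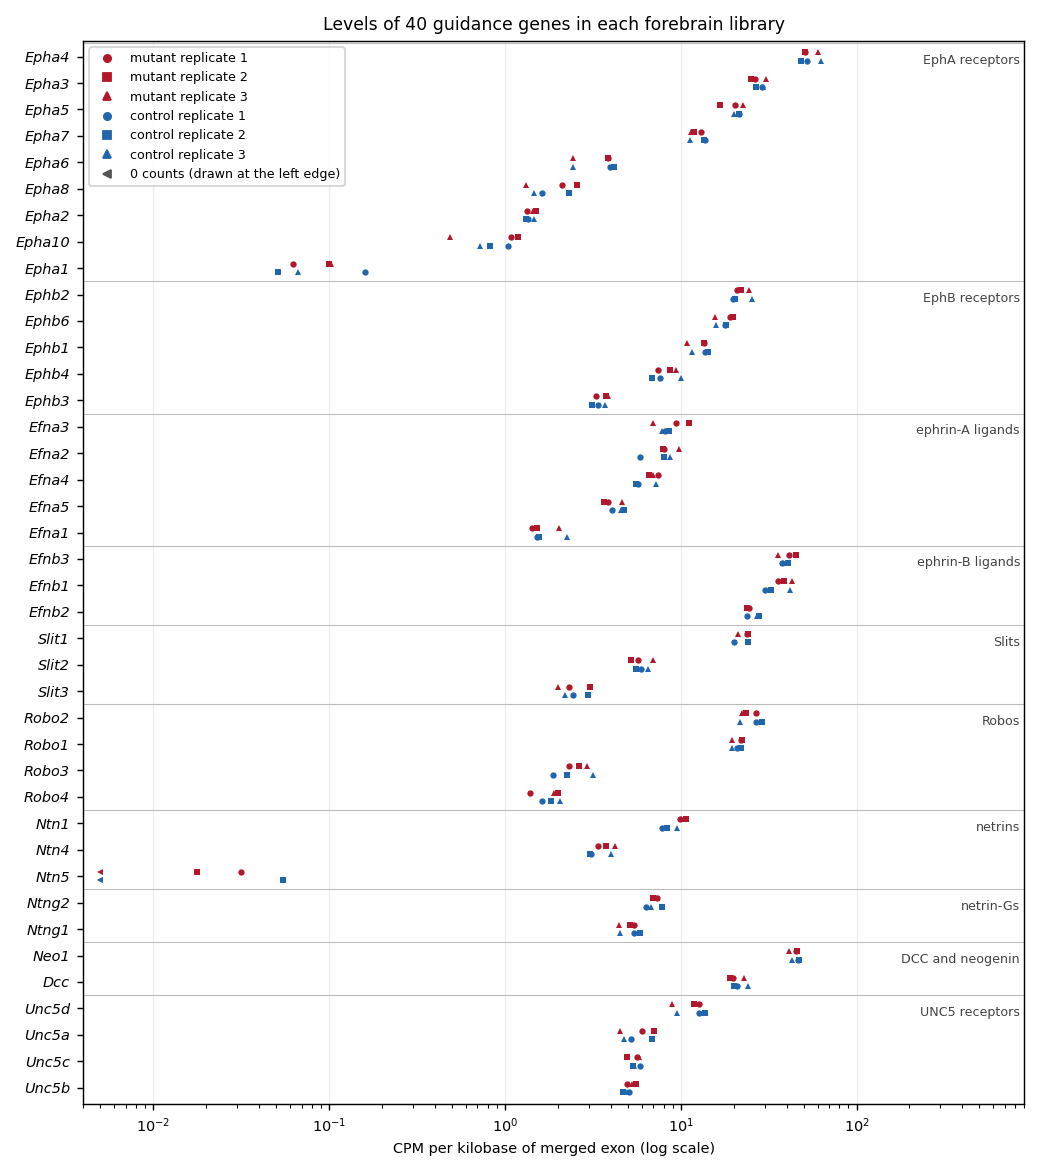
Level of each of the 40 guidance genes in each library, in CPM per kilobase of merged exon on a log axis, by family, with mutant libraries (red) drawn above control libraries (blue). Mutant and control points of a gene lie close together, while levels run between 0.0165 for Ntn5 and 54.1 for Epha4 in the mutant means.

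Summed by family, the per-length levels were close in both genotypes for most families, with the widest relative gap in the netrins. The 9 EphA receptors summed to 121 ± 8.89 CPM per kilobase in mutants and 125 ± 5.30 in controls (SD, n = 3 each), and Epha4 supplied 44.2% of that sum. The ephrin-B ligands reached 104 ± 3.39 in mutants and 100 ± 7.76 in controls with only 3 genes, more than the 5 ephrin-A ligands at 30.5 ± 0.414 in mutants and 28.1 ± 2.58 in controls. Robos summed to 50.03 ± 3.04 in mutants and 50.97 ± 4.30 in controls, of which Robo2 made up 49.7%. Their ligands, the Slits, summed to 31.5 ± 1.19 in mutants and 31.4 ± 2.42 in controls, mainly through Slit1 with 72.9%. The receptors Dcc and Neo1 together gave 64.9 ± 0.584 in mutants and 67.1 ± 0.249 in controls, and the 3 netrins gave 14.0 ± 0.629 in mutants and 12.0 ± 1.37 in controls. Netrins were the one family besides DCC with neogenin whose group means differed by more than both SDs. No test was run on the sums. Ntn1 supplied 72.2% of the netrin sum. In the third library of both genotypes Dcc was higher and Neo1 lower than in the first pair, and their sum varied less than either gene. Groups of this sum did not overlap, at 64.2 to 65.2 in mutants and 66.8 to 67.3 in controls. Each of these 2 genes alone had overlapping groups. With the longest transcript in place of the merged exons as length, 9 members moved by over 1.5-fold, and 8 of the first 10 stayed among the first 10.

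No guidance gene passed the test between genotypes. In edgeR's quasi-likelihood test, adjusted over all tested genes after Benjamini and Hochberg, 0 of 39 members passed an adjusted p of 0.05, the background being 0% of tested genes, and the smallest adjusted p of any gene was 0.9999. At an unadjusted p under 0.05 there was 1 member, Ntn1, against a background of 1.92% (376 genes, where 981 would be expected by uniform p-values). DESeq2 and limma-voom also called 0 genes, with 261 and 393 at an unadjusted p under 0.05. Member fold changes were small: 38 of 39 lay within 0.2 on the log2 scale, and 25 within 0.1. Over all tested genes the shares within those limits were 78.7% and 53.9%. Among genes over 10 CPM, 93.8% lay within 0.2, and so did 32 of 33 members over 10 CPM. The median of the members was 0.02, with 20 above 0 and 19 below. Over all genes it was -0.01, with 47.5% above 0.

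The precision of these fold changes differed between members. The 95% interval lay within a 2-fold change for 38 of 39 members, within 1.5-fold for 34 and within 1.25-fold for 13, so for most members a change of more than 1.25-fold lay inside the interval. It excluded 0 for Ntn1 only. The widest interval belonged to Epha1, between -1.21 and 1.01, a gene with under 1 CPM in each library. For well expressed members such as Neo1 the interval was -0.23 to 0.15, and for Epha4 it was -0.28 to 0.26.

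**Figure D2:**
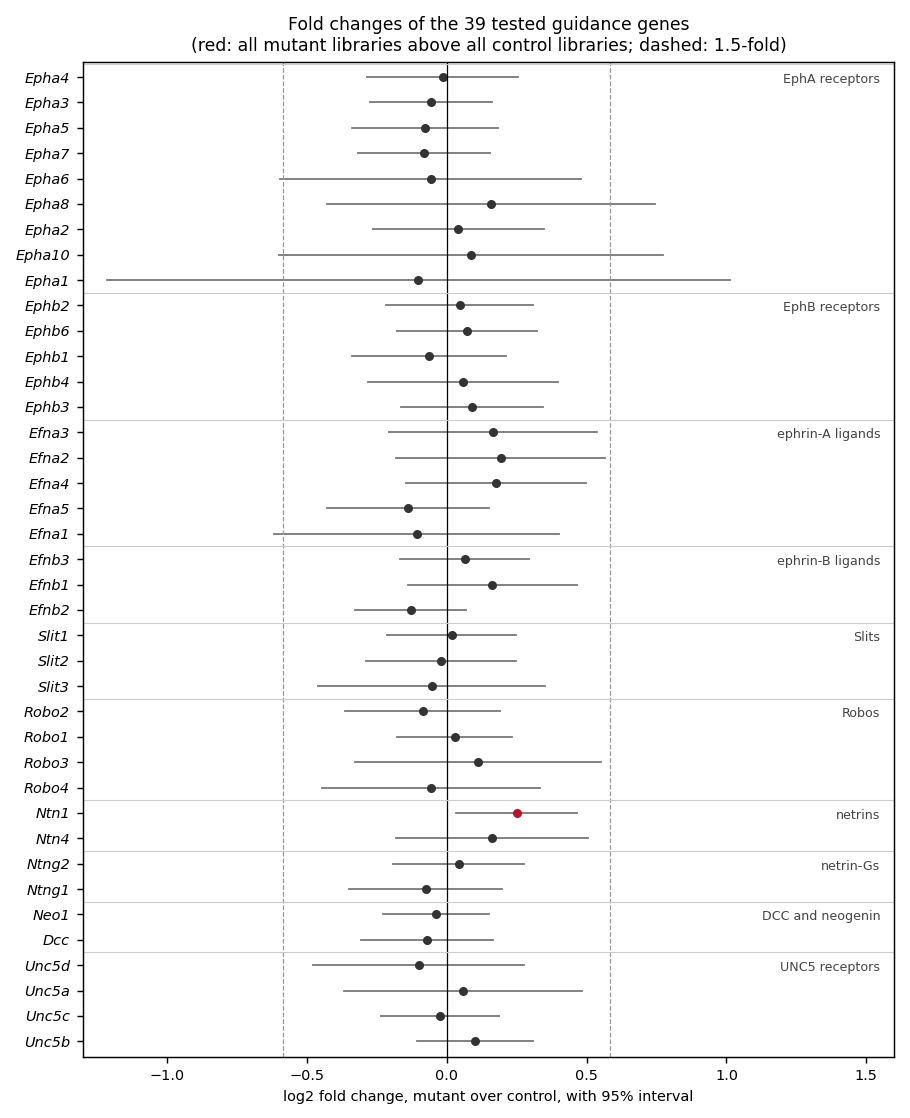
Log2 fold change, mutant over control, of the 39 tested guidance genes with 95% intervals from edgeR's quasi-likelihood fit, by family; dashed lines mark a 1.5-fold change. The interval of Ntn1 (red, 0.03 to 0.47) is the only one that does not cross 0, and those of the low genes Epha1, Epha8 and Epha10 are among the widest.

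Among the ephrin-A ligands 3 of 5 genes lay above 0, and the median of their log2 fold changes was 0.17. Leaving out control replicate 1 brought this median to 0.042, and leaving out mutant replicate 2 brought it to -0.00032. Efna3 had 22.9, 27.2 and 16.9 CPM in mutants, against 19.9, 20.8 and 19.1 CPM in controls. The mutant libraries enclosed the controls on both sides, with a log2 fold change of 0.17 ± 0.16 (SE). Efna2 had 17.1, 17.0 and 20.9 CPM in mutants, against 12.6, 17.1 and 18.5 CPM in controls. The first control library was the lowest, the groups overlapped, and the fold change was 0.19 ± 0.16 (SE), or 0.042 without that library and 0.090 without mutant replicate 3. Efna4 had 11.8, 10.5 and 11.2 CPM in mutants, against 9.20, 8.88 and 11.5 CPM in controls. The third control lay among the mutants, and the fold change was 0.18 ± 0.14 (SE). Efna5, a ligand used in topographic mapping, and Efna1, common in vessels, lay below 0 at -0.14 ± 0.13 and -0.11 ± 0.22 (SE). Efna1, Efna4 and Efna3 sit within 66.3 kb of chromosome 3. Exons of Efna3 and Efna4 overlap those of a gene on the opposite strand over 14.1% and 10.5% of their length, though those genes, Gm15998 and 4731419I09Rik, averaged only 0.186 and 1.81 CPM in mutants and 0.235 and 1.90 CPM in controls. Epha1, under 1 CPM itself, overlaps Zyx on the opposite strand over 6.01% of its exons, and Zyx averaged 17.9 CPM in mutants and 18.8 CPM in controls. Per the labels the kit kept strand, but how the counting used strand is not given in the sources, so reads of such pairs cannot be told apart with certainty.

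Ephrin-B ligands were among the most abundant guidance RNAs. Efnb1 had 123, 134 and 148 CPM in mutants, against 104, 113 and 144 CPM in controls. The third library was highest in both genotypes, and the groups overlapped, with a log2 fold change of 0.16 ± 0.13 (SE). Efnb2, which marks arteries as well as neural progenitors, had 167, 163 and 165 CPM in mutants, against 164, 192 and 186 CPM in controls. The mutant libraries were nearly equal and the first control lay among them, so that the fold change was -0.13 ± 0.09 (SE). Efnb3 had 131, 143 and 114 CPM in mutants, against 120, 129 and 122 CPM in controls. Its mutant libraries enclosed the controls, with a fold change of 0.06 ± 0.10 (SE).

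Of the 14 Eph receptors, 7 were positive and 7 negative in log2 fold change, around a median of 0.01. EphA receptors had 3 of 9 above 0 (median -0.05) and EphB receptors 4 of 5 (median 0.06). Both medians turned in some alternatives: without control replicate 1 the EphA median was 0.030, without control replicate 2 the EphB median was -0.0011, and with the GC content and length trend removed they were 0.0013 for EphA and -0.015 for EphB. Epha4 had 408, 410 and 489 CPM in mutants, against 423, 390 and 506 CPM in controls. In both genotypes the third library was the highest, and the fold change was -0.01 ± 0.12 (SE). Epha5, a receptor for ephrin-As, had 341, 279 and 380 CPM in mutants, against 359, 360 and 337 CPM in controls. The mutant libraries spread to either side of the controls, with a fold change of -0.08 ± 0.12 (SE). Epha7 had 129, 118 and 113 CPM in mutants, against 135, 134 and 111 CPM in controls. Again the groups overlapped, at -0.08 ± 0.10 (SE). The other EphA receptors lay between -0.10 and 0.16 in log2 fold change. They include Epha10, which lacks kinase activity, at 0.09 ± 0.30 (SE) and Epha8 at 0.16 ± 0.26 (SE).

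Ephb2, the EphB receptor with the highest level per length, had 265, 280 and 309 CPM in mutants, against 249, 257 and 320 CPM in controls. The third control exceeded all mutants, and the log2 fold change was 0.05 ± 0.12 (SE). Ephb6, another receptor without kinase activity, had 71.7, 75.0 and 59.1 CPM in mutants, against 67.2, 68.7 and 59.7 CPM in controls. Here the third library was lowest in both groups, at a fold change of 0.07 ± 0.11 (SE). Ephb3 had 21.9, 25.1 and 25.5 CPM in mutants, against 22.4, 20.8 and 24.7 CPM in controls. The groups overlapped, at 0.09 ± 0.11 (SE). Ephb1, which sorts retinal axons at the chiasm, was at -0.06 ± 0.12 (SE), and Ephb4, the venous partner of Efnb2, at 0.06 ± 0.15 (SE). Summed markers of endothelial cells, a cell type in which Ephb4, Efnb2 and Robo4 are used, were at 264 to 277 CPM in mutants and 252 to 266 CPM in controls. These ranges overlapped. Of the 10 markers, 8 had a fold change above 0, against 47.5% of all tested genes, and none was at 0 CPM. Such a share was not particular to them, as 9 of 10 dividing progenitor markers lay above 0. The part of endothelial cells in these values was not tested.

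The Slits showed no common direction, with 1 of 3 above 0. Slit1 had 141, 143 and 126 CPM in mutants, against 119, 142 and 143 CPM in controls. Mutants and controls covered nearly the same span, and the log2 fold change was 0.02 ± 0.10 (SE). Slit3 had 14.1, 18.4 and 12.1 CPM in mutants, against 14.9, 18.1 and 13.4 CPM in controls. The second library was highest in both genotypes, at a fold change of -0.05 ± 0.18 (SE). Slit2, which shares its receptors, was at -0.02 ± 0.12 (SE).

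Robo receptors split evenly, 2 above 0 and 2 below. Robo2 had 457, 402 and 381 CPM in mutants, against 457, 491 and 369 CPM in controls. The third library was lowest in each group, and the log2 fold change was -0.09 ± 0.12 (SE). Robo3, a divergent Robo that in mammals controls midline crossing, had 15.96, 18.2 and 20.2 CPM in mutants, against 12.8, 15.5 and 21.8 CPM in controls. Its controls spanned all mutants, at 0.11 ± 0.19 (SE). Robo1 was at 0.03 ± 0.09 (SE) and Robo4, an endothelial receptor, at -0.06 ± 0.17 (SE). Robo1 and Robo2 lie 0.846 Mb apart on chromosome 16. That chromosome also carries Epha3, Epha6, Ephb3 and Dyrk1a, and the nearest of these 5 members is 20.2 Mb from Dyrk1a. Robo3 and Robo4 face each other across 553 bases of chromosome 9.

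Ntn1 was the only member whose groups did not overlap. Ntn1 (chr11:68209364-68400823, minus strand, GRCm38) had 62.0, 67.0 and 63.4 CPM in mutants, against 49.5, 52.4 and 59.8 CPM in controls. Each mutant library exceeded each control library, the third control coming within a few CPM of the first mutant. Means were 64.1 ± 2.57 CPM in mutants and 53.9 ± 5.30 CPM in controls (SD, n = 3 each), a difference of 18.9% with a 95% interval of 2.34% to 38.2%. The log2 fold change was 0.25 ± 0.10 (SE), with an unadjusted p = 0.0283 and an adjusted p = 0.9999 (edgeR's quasi-likelihood F test, Benjamini-Hochberg over all tested genes), so it did not pass. Among all tested genes, 3.19% had each mutant library above each control library and 3.7% had each below. For the members the counts were 1 of 39 and 0 of 39, both under that background. Within replicates 1 and 2 the difference of Ntn1 was 0.34, and within replicate 3 it was 0.08.

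Ntn4, a netrin of basement membranes, had 12.8, 14.2 and 15.9 CPM in mutants, against 11.6, 11.5 and 15.1 CPM in controls. The third control lay among the mutants, and the log2 fold change was 0.16 ± 0.15 (SE). Ntng1 had 44.5, 42.4 and 36.9 CPM in mutants, against 45.0, 48.3 and 37.3 CPM in controls, at -0.08 ± 0.12 (SE). Ntng2 had 29.1, 27.8 and 29.3 CPM in mutants, against 25.5, 31.1 and 27.2 CPM in controls, at 0.04 ± 0.10 (SE). Both netrin-Gs had overlapping groups. Exons of Ntng2 overlap on their own strand those of another tested gene, 6530402F18Rik, over 14% of their length, so its count is uncertain.

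Netrin receptors lay between -0.10 and 0.10 in log2 fold change. Dcc had 261, 253 and 303 CPM in mutants, against 275, 267 and 316 CPM in controls. The third library was highest in both genotypes, and the groups overlapped at a fold change of -0.07 ± 0.10 (SE). Neo1 had 395, 401 and 359 CPM in mutants, against 404, 409 and 373 CPM in controls, an overlapping pair at -0.04 ± 0.08 (SE). Unc5d, the UNC5 receptor with the highest level per length, had 117, 109 and 82.3 CPM in mutants, against 117, 127 and 87.5 CPM in controls. Here the third library was lowest in each genotype, and the fold change was -0.10 ± 0.17 (SE). Unc5b, also an endothelial receptor, had 31.1, 34.8 and 33.3 CPM in mutants, against 31.9, 29.3 and 31.2 CPM in controls. One mutant lay among the controls, and the fold change was 0.10 ± 0.09 (SE). Unc5a and Unc5c were at 0.06 ± 0.19 and -0.02 ± 0.09 (SE).

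**Figure D3:**
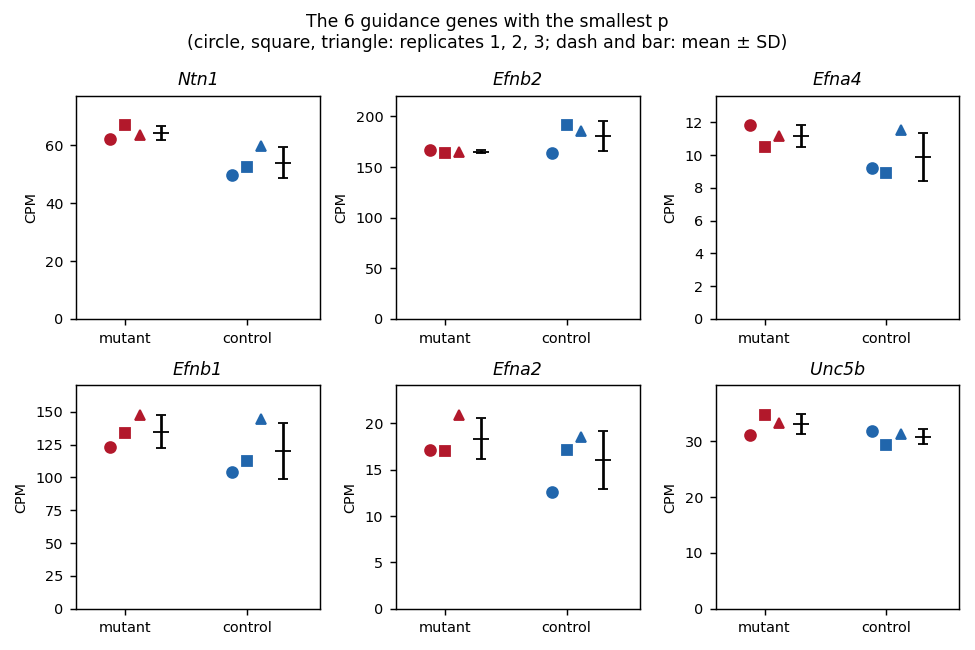
CPM in each library of the 6 guidance genes with the smallest unadjusted p, mutants (red) left of controls (blue), with mean and SD; the y axes start at 0. Ntn1 has all 3 mutant libraries (62.0 to 67.0 CPM) above all 3 controls (49.5 to 59.8 CPM), and in the other panels the groups overlap.

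The third library of each genotype differed from the first pair in much the same genes. Replicate 3 minus the mean of replicates 1 and 2 had the same sign in mutants and controls for 33 of 39 members, 18 higher and 15 lower in both. Over all tested genes the share with the same sign was 63.7%. Across the 39 genes, which are not independent replicates, Pearson's r between the genotypes was 0.72, and it was 0.36 over all tested genes. These backgrounds were not matched for level: 33 of 39 members were over 10 CPM, against 10900 of 19616 tested genes. The higher values are therefore not read as a trait of the members. The median size of this difference was 0.24 log2 CPM in mutants and 0.27 in controls, against a median size of 0.08 for the fold change between genotypes. All tested genes gave much the same values, at 0.206 in mutants, 0.199 in controls and 0.090 between genotypes. A single library set against the mean of a pair varies more by construction than a difference of group means, so these sizes are not directly comparable. Epha6 was at -0.66 in mutants and -0.74 in controls, and Unc5d at -0.46 in mutants and -0.48 in controls. Epha8, Epha10 and Unc5a were lower in replicate 3 as well, at -0.81, -1.19 and -0.53 in mutants and -0.40, -0.36 and -0.33 in controls. In the other direction, Efna1 was at 0.46 in mutants and 0.53 in controls, Robo3 at 0.24 in mutants and 0.63 in controls, and Ephb4 at 0.21 in mutants and 0.46 in controls.

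Summed markers of dividing progenitors moved with the third libraries. They reached 2283 CPM in mutant replicate 3, against 1464 and 1557 CPM in mutant replicates 1 and 2, and 2154 CPM in control replicate 3, against 1399 and 1376 CPM in control replicates 1 and 2. Summed neuronal markers were lowest in the third libraries, at 5381 CPM in the mutant one and 5303 CPM in the control one, with 5929 to 6301 CPM in the other 4. No marker of either list was at 0, but not all followed their sum. Sox2 in control replicate 3 (66.1 CPM) lay between control replicates 1 and 2 (58.9 and 71.1 CPM). Dcx in mutant replicate 3 (1447 CPM) exceeded mutant replicate 2 (1278 CPM). Other lists differed as well. The embryonic globin Hbb-y had 322 CPM in mutant replicate 3 and 321 CPM in control replicate 3, against 27.8 to 42.5 CPM elsewhere. Summed oligodendrocyte precursor markers were lowest in the third libraries. The part of all these markers in the members' values was not tested. The labels give no batch for these libraries. Of 39 members, 16 had the same direction of mutant against control within replicates 1 and 2 and within replicate 3. The share over all tested genes was not computed, so this count is not read as a trait of the members. Fitted on replicates 1 and 2 alone, 3 members had an unadjusted p under 0.05 against a background of 7.86%, and 0 were called. With limma-voom weighting each library by its quality, 4 members did against a background of 9.71%, and the smallest adjusted p of any member was 0.327 (limma, Benjamini-Hochberg). Both counts amount to shares near their backgrounds.

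**Figure D4:**
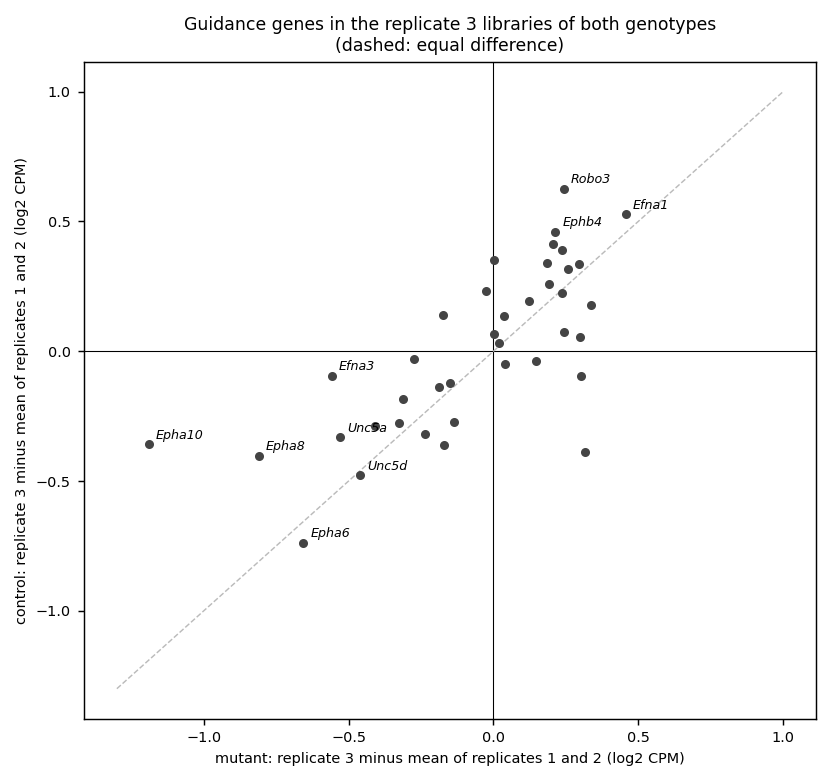
Difference in log2 CPM between replicate 3 and the mean of replicates 1 and 2, in mutants (x axis) against controls (y axis); each point is 1 of the 39 tested guidance genes, and the dashed line marks equal differences. Of these, 33 points lie in the lower left and upper right quadrants, with Epha6 (-0.66 and -0.74) and Efna1 (0.46 and 0.53) near the line.

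The small fold changes of the members followed the base composition of their transcripts. Of the 20 members whose longest transcript had a GC content of 55.2% or more, 18 lay above 0, with a median of 0.08. Of the 19 members with less GC, 2 did, with a median of -0.06. Ntn1, the ephrins Efna2, Efna3, Efna4, Efnb1 and Efnb3 and most EphB receptors were on the GC-rich side. The receptors Epha3, Epha4, Epha5 and Epha7, Robo2, Dcc and Neo1 were on the other. Across the 39 members the Spearman correlation between fold change and GC content was 0.70, given as a description since all points come from the same 6 libraries. All tested genes showed the same relation at a correlation of 0.33, with 74.5% above 0 at or over that GC content and 41.4% below it. This background was not matched for expression level either, so the higher correlation is not read as a trait of the members. Mutant replicate 2 held the widest gap, with the GC-rich members at 0.17 and the others at -0.10 relative to the control mean in log2 CPM. With each library's trend on GC content and length removed, 10 of the 20 GC-rich members and 10 of the 19 others lay above 0, and the correlation was -0.08. The removal flattens such a relation over all genes by construction, so this even split is no separate result. It would also take out a genotype difference that runs along GC content. The cause of the relation was not tested. By family, 5 of 9 EphA receptors, 2 of 5 EphB receptors, 3 of 5 ephrin-As and 1 of 3 ephrin-Bs were then above 0. Ntn1, with a GC content of 57.8%, was then at 0.20, Efna2 at 0.11 and Efnb1 at 0.09, while Slit1, Ephb6, Efnb3 and Ntng2 were at -0.06, -0.04, -0.01 and -0.10.

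**Figure D5:**
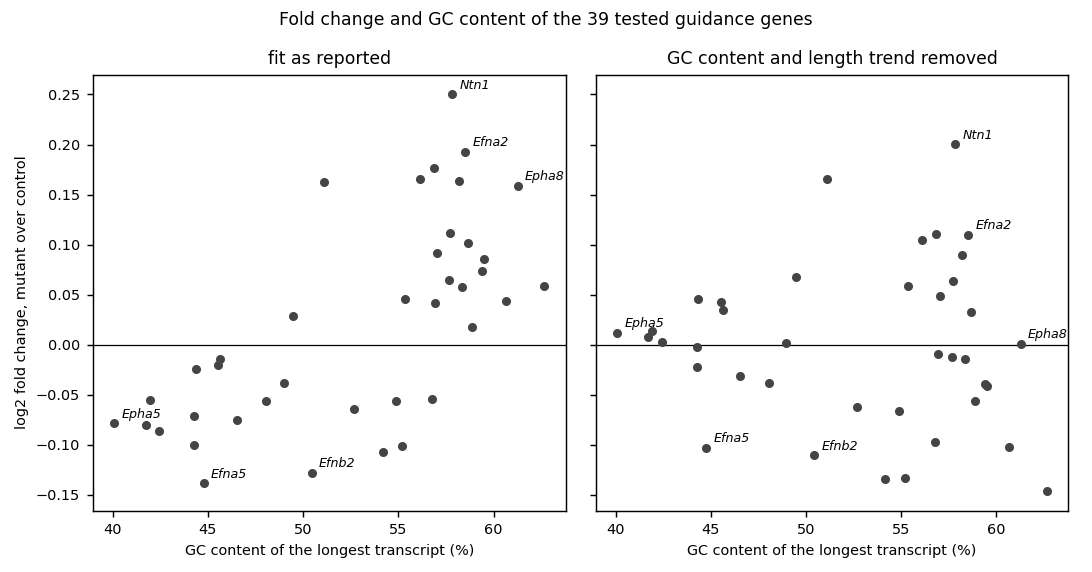
Log2 fold change, mutant over control, against the GC content of the longest transcript in percent, for the 39 tested guidance genes, as fitted (left) and with each library's trend on GC content and length removed (right). On the left 18 of the 20 GC-rich members lie above 0 and 17 of the 19 others below. On the right 10 of 20 and 10 of 19 lie above, where the removal flattens the relation over all genes by construction.

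A list of 78 partners of these systems was set beside the members. Among them were kinases and adaptors of Eph signalling, and srGAPs and Ena/VASP proteins that act below Robo and DCC. The NGL family was listed as well, though not all of its members bind netrin-Gs. All 78 were tested. In the same edgeR test and adjustment 0 passed in either direction, 37 lay above 0 and 41 below, and the median log2 fold change was -0.00348. At an unadjusted p under 0.05 there was 1 gene, against the background of 1.92%. It was Lrrc4b, an NGL family member, with 164, 171 and 133 CPM in mutants, against 99.7, 148 and 110 CPM in controls. The second control exceeded the third mutant, so the groups overlapped, and the fold change was 0.39 ± 0.16 (SE). Lrrc4b has a GC content of 63.1%, and with the GC content and length trend removed its fold change was 0.17. Its unadjusted p was under 0.05 in 11 of 16 alternatives and reached 0.136 without control replicate 1 (edgeR). The NGL genes Lrrc4 and Lrrc4c lay below 0, at -0.13 ± 0.14 and -0.10 ± 0.21 (SE). Groups without overlap occurred for 3 partners (3.85%, against 6.89% of all tested genes), a share under the background: the actin regulator Vasp, the Robo-binding GTPase activator Srgap3 and the focal adhesion kinase gene Ptk2, named after their values were seen.

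Promoters were read because DYRK1A is known to be recruited to chromatin at a palindromic promoter motif, and DLX proteins, whose domain the Cre follows, bind a homeodomain core. RefSeq promoter entries on GRCm38.p6, each covering 250 bases before to 50 bases after a start, were found for 35 of the 40 genes, 40 entries in all. Ntn1, Efnb3, Slit1, Dcc and Unc5d had no entry, so neither motif was looked for in them. The 40 entries of members held a median of 21.5 CpG dinucleotides and 64.5% GC, against 7 and 52.7% over all entries. All entries include genes that were not tested here. Values over tested genes alone were not computed, so the difference is not read as a trait of the members. The palindrome TCTCGCGAGA was in 0 of the 40 entries and in 0.466% of all promoters. At so low a share, 0 of 40 entries is the usual outcome, so it shows nothing particular to the members. The homeodomain core TAATTA, which like the palindrome reads the same on both strands, was in 3 entries (7.5%) and in 5.3% of all promoters. A match of one cannot overlap a match of the other. The matches are shown as 30 bases on the gene's strand with the core in capitals. Relative to the start of their RefSeq entry, the cores begin 175 bases before it in Efna1, 230 in Epha5 and 101 in Robo3. Efna1 has 2 entries, of which 1 holds the core, and that core lies inside the gene as GENCODE annotates it.
Efna1, chr3:89281109-89281138, minus strand: cctggcccgatgTAATTAcagggtctgccg
Epha5, chr5:84417595-84417624, minus strand: gattctttacccTAATTAtcccgggaggaa
Robo3, chr9:37433259-37433288, minus strand: ggattaagccctTAATTAcggcgtgatccg
These 3 genes had log2 fold changes of -0.11 for Efna1, -0.08 for Epha5 and 0.11 for Robo3, each with overlapping groups. A match describes the sequence and shows no binding.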

How the data were processed

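The values are raw read counts per gene deposited by the authors, 1 column per library. Per the labels' protocols, libraries kept strand, were depleted of ribosomal RNA (TruSeq Stranded Total RNA, Ribo-Zero Gold) and were sequenced single-end, though the molecule field says polyA RNA. Per the submitters' processing notes, bcl2fastq 2.17.1.14, HISAT2, SAMtools 1.9 and HTSeq 0.9.1 were used on GRCm38. The counting's strand setting and mode are not given in these sources. Symbols, lengths and GC content came from GENCODE M21 on GRCm38.

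Counts were analysed here with edgeR 4.0.16 in R 4.3.3: filterByExpr (count minimum 10, total 15), TMM, robust quasi-likelihood F test of genotype without covariates, Benjamini-Hochberg adjustment over 19616 genes, threshold 0.05. Standard errors came from fold change and F. Log2 CPM used a prior count of 2. limma 3.58.1 and DESeq2 1.42.0 were alternatives. GC content and length trends were removed by splines with 5 degrees of freedom. Replicates of a group differed by more than counting noise.

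Members and lists were chosen with earlier results of these data known. Full values are given for each family's 2 smallest p-values and highest level, for members without overlap or with an unadjusted p under 0.05, and for partners under that p.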

Additional observations from a re-analysis of the deposited data

How the results depend on the processing

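With 3 libraries per genotype, 16 alternatives were run, and no guidance gene was called in any of them; the smallest adjusted p of a member was 0.327, by limma-voom with sample weights. With only replicates 1 and 2, 3 genes of the whole table were called, none of them a member. The number of members at an unadjusted p under 0.05, 1 as reported, was 4 with sample weights (9.71% of all genes there), 3 with only replicates 1 and 2 (7.86%), 2 once replicate 3 libraries had their own term (4.31%), 0 with the GC content and length trend removed (2.02%), and between 0 and 3 when 1 library was left out, where the share of all genes ranged between 0.902% and 5.33%. The members' median log2 fold change stayed between -0.02 and 0.04 when 1 library was left out. Ntn1 kept its direction in all 16, between 0.19 and 0.35, but had an unadjusted p above 0.05 without control replicate 1 (0.121), control replicate 2 (0.0824) or mutant replicate 2 (0.0741), and with the GC content and length trend removed (0.0604); over the 16 its adjusted p ranged between 0.327 and 1.00.

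Same-numbered libraries correlated in their deviations from the group means at 0.24, 0.071 and 0.36, so the numbers are not taken as pairs, and not every library correlated best with its own number. With the replicate number as a block, 0 genes were called and 1 member (2.56%) had an unadjusted p under 0.05, also with the trend removed, against 3.9% and 5.38% of all genes.

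Family medians changed sign in at least 1 alternative for all families but the netrins (0.14 to 0.33). The netrin median rests on 2 tested genes, Ntn1 and Ntn4. With the GC content and length trend removed 16 members turned, 7 of them not among those given in full, Unc5a the farthest (-0.15). For those given in full, with the GC content and length trend removed, and likewise with the block added, the values were -0.012 and -0.013 for Efnb3, 0.035 and 0.042 for Epha4, 0.012 and 0.010 for Epha5, 0.0075 and 0.0049 for Epha7, -0.039 and -0.038 for Ephb6, 0.0023 and 0.0019 for Neo1, -0.10 and -0.10 for Ntng2, 0.0028 and 0.0034 for Robo2, and -0.056 and -0.053 for Slit1. Dcc turned only with the block added, to 0.0022, and Epha4 also with only replicates 1 and 2, to 0.012. When 1 library was left out, signs turned for Dcc (-0.15 to 0.015), Efna3 (-0.00032 to 0.33), Efnb3 (-0.016 to 0.15), Epha4 (-0.10 to 0.11), Epha5 (-0.18 to 0.034), Ephb2 (-0.022 to 0.18), Neo1 (-0.070 to 0.013), Ntng1 (-0.17 to 0.0056), Ntng2 (-0.019 to 0.13), Robo2 (-0.19 to 0.0015), Robo3 (-0.049 to 0.36), Slit1 (-0.064 to 0.077), Slit3 (-0.24 to 0.078) and Unc5d (-0.24 to 0.041). The cause was not tested.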
